A study of Rattus norvegicus with 30 samples.

Results

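Xenobiotic metabolism genes encode the enzymes that change foreign chemicals into forms the body can excrete. Of 42 such genes named in a list, 40 had a probe on the rat array under a current gene name, and all 40 were measured and tested. Cyp2b1 and Aldh1a7 were not analysed here. Each gene was read from 1 probe, the one with the highest mean Cy5 signal over the 30 arrays. The list was drawn up by function, with no threshold on these values, but with earlier results of these data known. The whole series held 18420 genes that passed the same filter on dim probes.

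In phase 1 of this metabolism, cytochromes P450, flavin-containing monooxygenases, aldehyde and xanthine oxidases, amine oxidases, dehydrogenases and hydrolases add or expose a reactive group. In phase 2, glutathione S-transferases, sulfotransferases, glucuronosyltransferases and acetyltransferases attach a water-soluble group. The lung carries its own set of these enzymes, in which club cells, alveolar type II cells and the capillary endothelium are known sites of P450 and monooxygenase activity. The aryl hydrocarbon receptor, Ahr, is a ligand-activated transcription factor whose classical targets include Cyp1a1, Cyp1b1 and Ugt1a6.

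The series measured lung RNA of adult male Wistar Unilever outbred rats (strain HsdCpb:WU), supplied at 8 weeks of age and acclimatized for 2 weeks. The rats inhaled copper oxide nanoparticles or clean air, nose only, on 5 consecutive days. The 6 groups of 5 rats breathed air only, a low dose of 3.3 mg/m3 or a high dose of 13.2 mg/m3 (6 hour equivalents), and were sampled at day 6 (1 day after the last exposure) and at day 28 (22 days after it). Every array held the lung RNA of 1 rat in Cy5 against a common reference RNA in Cy3, so all values below are log2 ratios of lung over reference, and n is 5 rats a group. The reference is described both as a rat pool from 14 cell lines and, in the labelling protocol, as a mouse product, so the ratios have no absolute meaning and are compared only between rats for the same probe. Different rats were sampled on the 2 days.

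Between 59.5% and 68.4% of probes were well above background per array, and 2 arrays of 1 group correlated at 0.924 to 0.985 over genes. The lung markers Sftpc, Sftpb, Scgb1a1, Ager and Pecam1 were well above background on all 30 arrays, and so were the liver-associated genes Alb, Ttr and Serpina1, while Apoa1 was on 24. Some lungs differed from the rest of their group. In air rat 4 of day 6 the heart muscle markers averaged 5.08 against at most 0.70 in the other 4 air rats. Its club and goblet markers averaged 3.79 against at most 2.22. Low dose rat 49 of day 6 had a heart muscle mean of 2.69 and a club and goblet mean of 3.62. At day 28 the heart muscle mean was 1.75 in low dose rat 54 (next highest 0.17) and 1.87 in high dose rat 83 (next highest 0.42). Results that rest on air rat 4 are given without it as well.

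Most of the change was at the high dose at day 6, and it was mainly downward. Of the 40 members, 16 fell and 3 rose against air in limma with Benjamini-Hochberg adjustment over all 18420 genes at 0.05. Over all genes, 15.5% were called lower and 21% higher in that comparison, so members were called lower more often than genes at large (40% against 15.5%) and higher less often (7.5% against 21%). These shares are descriptions with no test, and the list was not chosen blind to these data. Of all genes called, 57.6% were higher, and this share was 43.6% where arrays were centred on their medians in place of loess, 45.6% from Cy5 alone and 46% in the authors' deposited table. The median log2 change was -0.37 over the members and 0.01 over all genes, and the members' changes ran from -1.55 to 0.64. Without air rat 4, 14 members passed, of which 13 were lower and 1 higher. The number of members called higher depended on the scaling: it was 0 with median centring (14 lower) and 1 from Cy5 alone (17 lower), from the scanner's processed signals (16 lower) and in the authors' deposited table (17 lower). At the low dose the same comparison called 4 members lower and none higher, and at day 28 none was called at either dose.

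**Figure D1:**
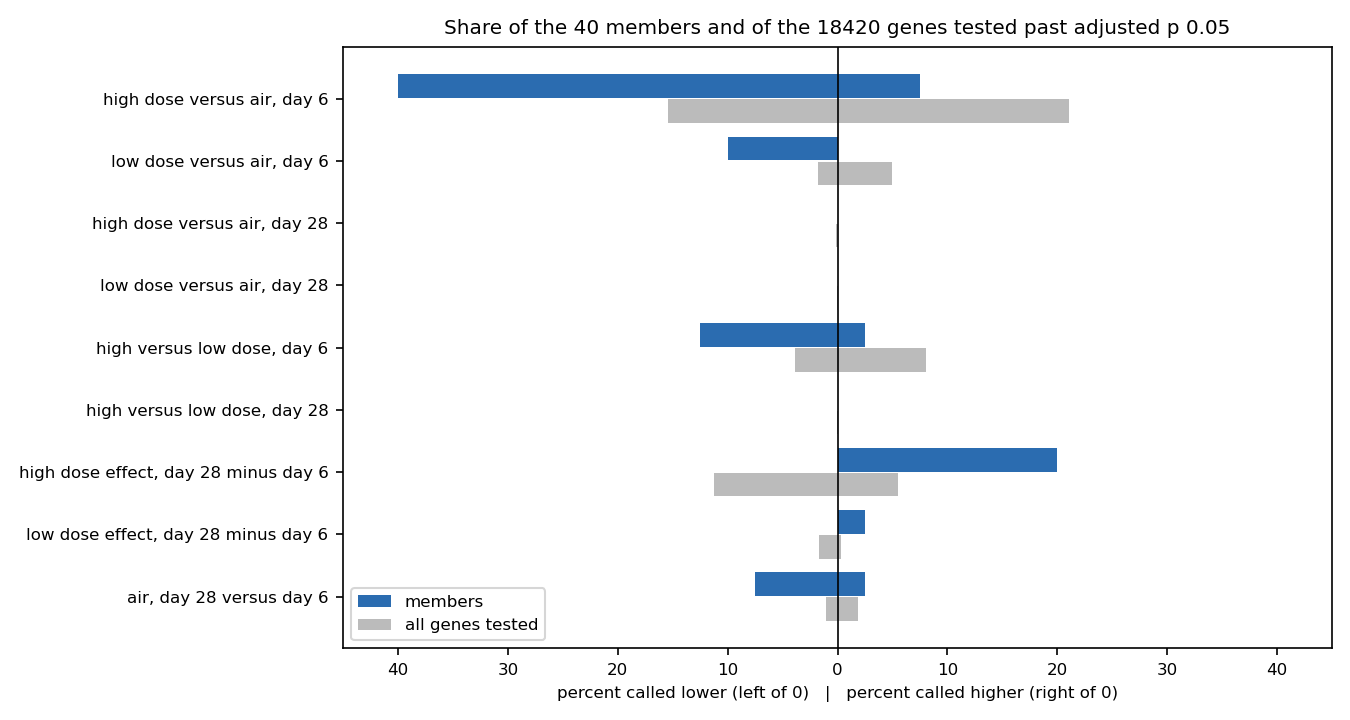
Horizontal bars give, for each of the 9 comparisons, the percentage of the 40 members (blue) and of the 18420 genes tested (grey) called lower (left of 0) or higher (right of 0) at adjusted p 0.05. The longest blue bar is the 40% of members called lower at the high dose at day 6, against 15.5% of all genes.

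**Figure D2:**
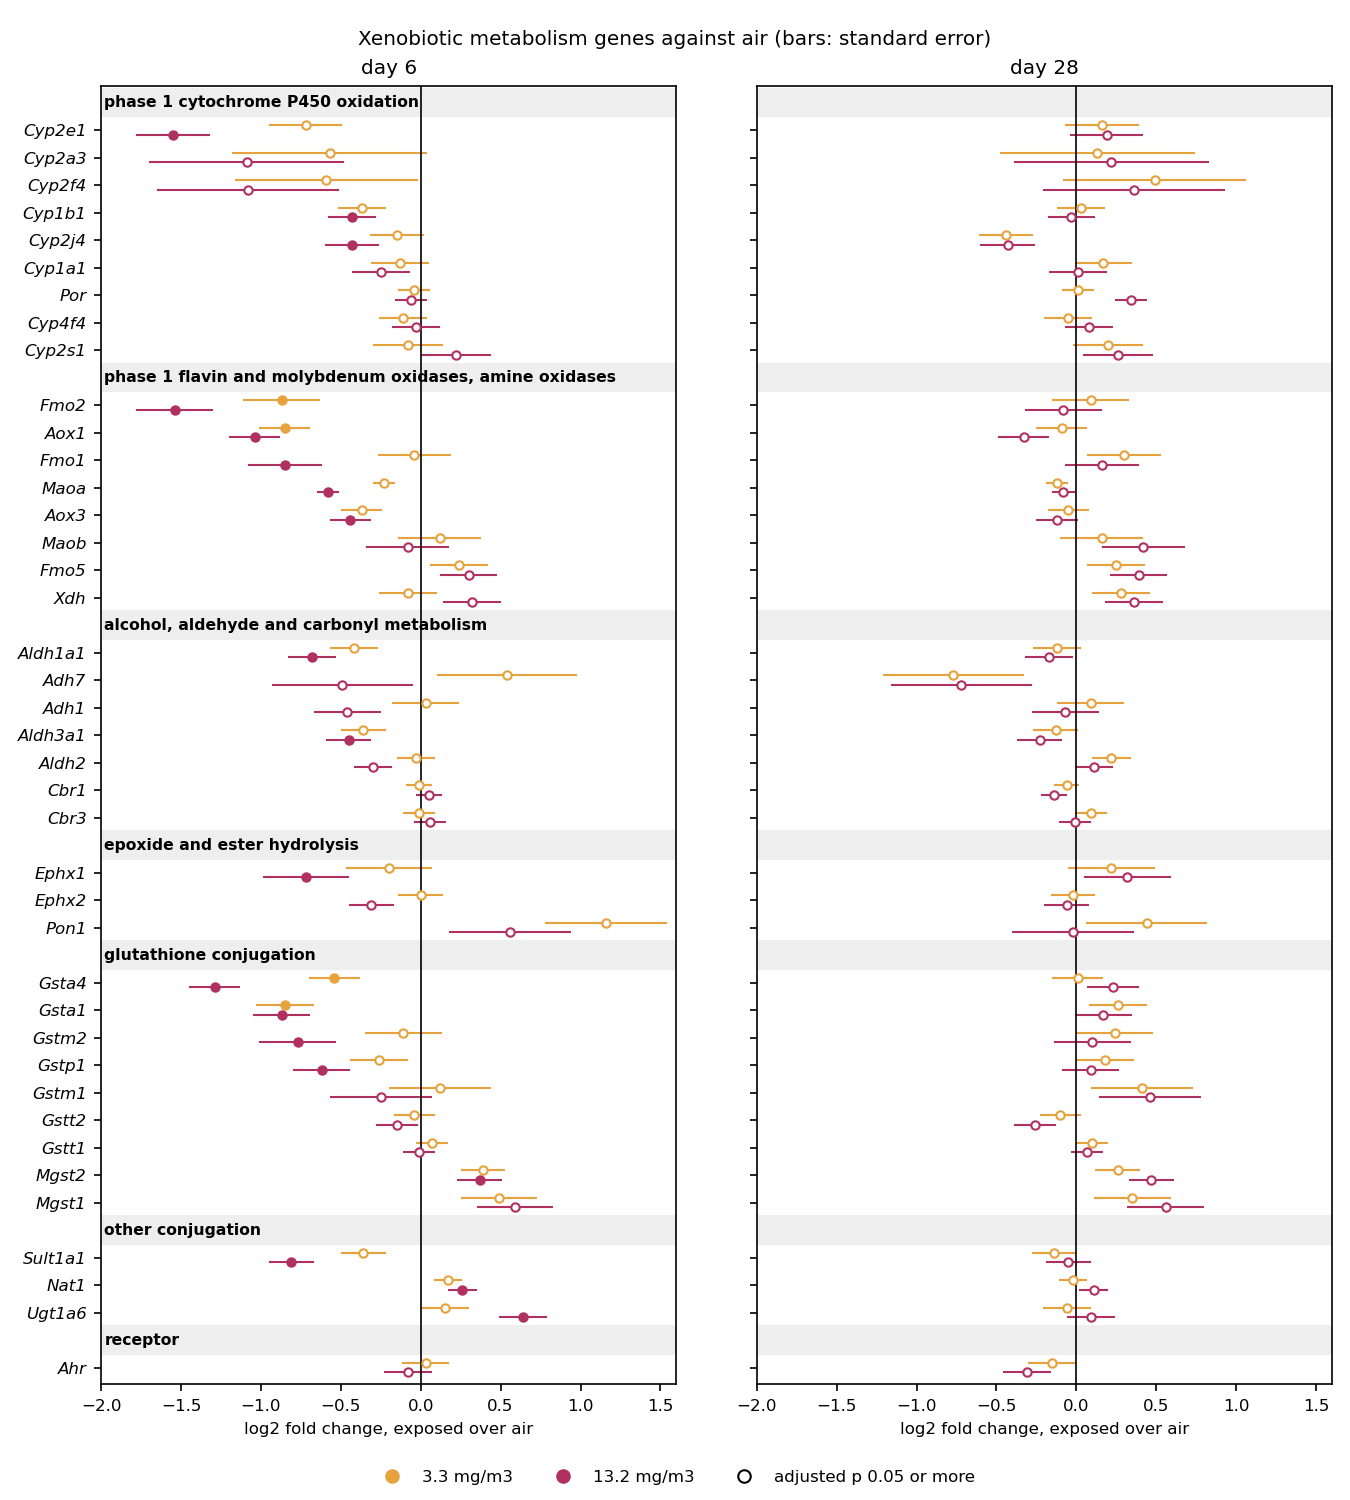
Each row is a member, grouped by role; points are log2 fold changes over air with standard errors at 3.3 mg/m3 (orange) and 13.2 mg/m3 (dark red), at day 6 (left) and day 28 (right), and filled points passed the test. Filled points lie mostly left of 0 at day 6, and no point is filled at day 28.

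The regions just before the start sites of members that moved are shown so that the sequences can be read beside the values. RefSeq promoters of the GRCr8 build were matched by symbol for 31 of the 42 listed genes, and the first 250 bases of each, ending at the base before the annotated start, were searched on both strands for GCGTG, the core of the element bound by the aryl hydrocarbon receptor, and for TGACNNNGC, the core of the antioxidant response element. The capitals below mark every match on either strand, and the 2 motifs do not overlap in these stretches. The first 3 genes carry the largest falls, the next 2 are members that fell and hold a match, and Ugt1a6 is the member that rose most.
Cyp2e1, GRCr8 chr1:205269717-205269966, plus strand: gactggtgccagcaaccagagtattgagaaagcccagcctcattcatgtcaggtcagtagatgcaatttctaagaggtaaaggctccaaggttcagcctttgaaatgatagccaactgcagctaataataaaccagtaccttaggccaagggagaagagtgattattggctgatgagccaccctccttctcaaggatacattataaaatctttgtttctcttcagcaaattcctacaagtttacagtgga
Fmo2, GRCr8 chr13:77777535-77777784, minus strand: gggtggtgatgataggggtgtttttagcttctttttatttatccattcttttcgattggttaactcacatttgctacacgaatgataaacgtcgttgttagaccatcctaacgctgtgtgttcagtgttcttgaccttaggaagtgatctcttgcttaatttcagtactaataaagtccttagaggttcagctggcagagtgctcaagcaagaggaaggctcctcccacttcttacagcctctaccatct
Gsta4, GRCr8 chr8:87947015-87947264, plus strand: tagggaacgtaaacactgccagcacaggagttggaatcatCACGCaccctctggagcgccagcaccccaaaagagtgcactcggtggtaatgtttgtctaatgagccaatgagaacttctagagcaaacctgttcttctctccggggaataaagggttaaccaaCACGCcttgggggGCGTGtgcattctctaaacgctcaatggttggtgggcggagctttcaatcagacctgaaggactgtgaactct
Gstp1, GRCr8 chr1:210769706-210769955, minus strand: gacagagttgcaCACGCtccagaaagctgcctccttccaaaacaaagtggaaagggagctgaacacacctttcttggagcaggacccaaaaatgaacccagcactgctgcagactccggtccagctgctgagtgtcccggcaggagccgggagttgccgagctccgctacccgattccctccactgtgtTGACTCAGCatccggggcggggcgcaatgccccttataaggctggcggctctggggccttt
Cyp1b1, GRCr8 chr6:21094315-21094564, plus strand: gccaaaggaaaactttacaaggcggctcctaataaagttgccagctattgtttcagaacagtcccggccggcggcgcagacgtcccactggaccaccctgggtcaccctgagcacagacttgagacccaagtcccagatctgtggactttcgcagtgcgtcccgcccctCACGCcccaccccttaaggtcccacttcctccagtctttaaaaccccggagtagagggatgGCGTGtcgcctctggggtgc
Ugt1a6, GRCr8 chr9:96194768-96195017, plus strand: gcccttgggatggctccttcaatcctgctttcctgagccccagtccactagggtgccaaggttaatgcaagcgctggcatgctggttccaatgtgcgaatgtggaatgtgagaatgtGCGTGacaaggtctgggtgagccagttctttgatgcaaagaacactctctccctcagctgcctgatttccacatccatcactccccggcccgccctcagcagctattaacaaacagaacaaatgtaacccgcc
GCGTG was found in 10 of the 31 promoters (32.3%) and in 25.9% of all 33469 RefSeq promoter windows of the same length. It was in 3 of the 14 matched members that fell at the high dose at day 6, which are Gsta4, Gstp1 and Cyp1b1. TGACNNNGC was found in 2 of the 31 (6.45%) against 10.1% of all windows, in Gstp1 and in Cyp2s1. The windows of Cyp2e1 and Fmo2 held neither motif. These matches are letters in a window and were not measured as binding sites.

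Cytochromes P450 oxidise the widest range of foreign compounds. Of the 9 measured members with this role, counting Por, the reductase that passes electrons to them, 3 fell at the high dose at day 6 and none rose, with a median change of -0.43. Cyp2e1, which oxidises ethanol and small solvents, read 3.24, 3.32, 3.12, 2.46 and 3.10 in air rats 1 to 5 at day 6. It read 2.33, 2.14, 2.10, 2.31 and 2.74 in the low dose rats and 1.78, 1.15, 1.88, 1.32 and 1.35 in the high dose rats. All 5 high dose rats lay below every air rat and every low dose rat. The fall against air was 2.94-fold (log2 -1.55 ± 0.23, SE, adjusted p = 3.91e-06) at the high dose, and the high dose rats lay below the low dose rats by 1.78-fold (-0.83 ± 0.23, adjusted p = 0.0151). At the low dose the log2 difference from air was -0.72 ± 0.23 and did not pass with all rats (adjusted p = 0.0515), but it did without air rat 4 (-0.87, adjusted p = 0.0167). Without low dose rat 51 the difference between doses just missed the threshold (-0.73, adjusted p = 0.0502).

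Cyp2e1 also shows how the later groups differ from the earlier ones. At day 28 the air rats read 2.38, 2.32, 2.60, 2.27 and 2.30, the low dose rats 2.15, 2.60, 2.22, 2.85 and 2.85, and the high dose rats 2.57, 1.74, 3.58, 2.27 and 2.66. The 3 groups overlapped, and the high dose group held both the lowest and the highest rat. The air mean was 3.05 ± 0.34 (SD) at day 6 and 2.37 ± 0.13 at day 28, and this difference of -0.68 ± 0.23 did not pass (adjusted p = 0.0853). The high dose mean was 1.49 ± 0.32 at day 6 and 2.56 ± 0.67 at day 28.

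The other P450 members changed less or too variably to pass. Cyp1b1, an Ahr target that oxidises polycyclic hydrocarbons and oestrogens, read -1.04, -1.48, -1.12, -0.60 and -0.71 in the air rats at day 6 and -1.28, -1.30, -1.34, -1.53 and -1.67 at the high dose. The groups overlapped through air rat 2. Its fall was 1.35-fold (-0.43 ± 0.15, adjusted p = 0.0262), and the call was lost without air rat 4 (-0.34, adjusted p = 0.0938), air rat 5 (-0.36, adjusted p = 0.0826), high dose rat 78 (-0.41, adjusted p = 0.0553) or high dose rat 79 (-0.37, adjusted p = 0.0766). The low dose rats read -1.74, -1.37, -1.04, -1.22 and -1.42, and Cyp1b1 did not pass there (-0.37 ± 0.15, adjusted p = 0.159). Cyp2j4, an arachidonic acid epoxygenase, fell by 0.43 on the log2 scale (adjusted p = 0.0448), a call that 10 of 22 alternatives lost, among them the removal of any of air rats 2 to 5 or high dose rats 77 to 79. Cyp2s1 (0.22 ± 0.22), Por (-0.06 ± 0.10) and Cyp4f4 (-0.03) did not pass, and Cyp4f4 was well above background on only 6 of 30 arrays.

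Cyp1a1, the classical inducible target of Ahr, was near background in these lungs. It was well above background on 10 of 30 arrays, which were 2 air rats at day 6 and 2 air, 3 low dose and 3 high dose rats at day 28. None of the 10 exposed rats of day 6 was among them. The log2 ratios of day 6 were -0.17, 0.33, -0.06, -0.10 and 0.32 in air, 0.09, -0.22, -0.15, -0.15 and 0.11 at the low dose and -0.12, -0.11, -0.18, -0.31 and -0.20 at the high dose. The groups overlapped at both doses. High dose against air gave a log2 difference of -0.25 (adjusted p = 0.297), which was not called. With so few arrays above background, the size of this difference is not reliable. At day 28 the means were 0.29 ± 0.25 in air, 0.46 ± 0.45 at the low dose and 0.30 ± 0.43 at the high dose.

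The flavin-containing monooxygenases and the oxidases held the largest number of falls of any role. Of 8 measured members, 5 fell at the high dose at day 6 and none rose, with a median change of -0.51. Fmo2, a gene of the flavin-containing monooxygenase family, read 7.82, 7.39, 8.05, 7.97 and 7.99 in air at day 6. Only its RNA was measured, and whether its product is an active enzyme in these rats was not examined. The low dose rats read 6.74, 6.76, 6.77, 7.27 and 7.33, and the high dose rats 6.32, 6.15, 6.52, 6.39 and 6.11. The 3 groups did not overlap and stood in the order of dose. The fall was 2.92-fold at the high dose (-1.54 ± 0.24, adjusted p = 8.34e-06) and 1.83-fold at the low dose (-0.87 ± 0.24, adjusted p = 0.0223), while the step between the doses did not pass (-0.68 ± 0.24, adjusted p = 0.0626). The low dose call was lost without air rat 3 (-0.82, adjusted p = 0.0597), air rat 5 (-0.83, adjusted p = 0.0594) or low dose rat 48 (-0.82, adjusted p = 0.0659). A second, dimmer Fmo2 probe (mean Cy5 22210 against 30610) gave a smaller difference of -0.49 at the high dose and -0.34 at the low dose. With the mean of both probes the low dose call was lost (-0.61, adjusted p = 0.0943), while the high dose call was kept.

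Fmo2 at day 28 read 6.85, 7.00, 7.07, 6.88 and 7.24 in air, 6.18, 7.04, 7.35, 7.43 and 7.47 at the low dose and 7.29, 5.90, 6.61, 7.55 and 7.29 at the high dose. The exposed rats spread to both sides of the air rats. Every air rat of day 28 lay below every air rat of day 6, a difference of -0.83 ± 0.24 that did not pass (adjusted p = 0.0512). The high dose means were 6.30 ± 0.17 at day 6 and 6.93 ± 0.67 at day 28.

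Fmo1, a related monooxygenase, separated the doses. It read 2.30, 2.33, 2.36, 1.61 and 2.29 in air, 1.73, 2.18, 2.41, 2.24 and 2.13 at the low dose and 1.95, 1.67, 1.28, 1.08 and 0.65 at the high dose of day 6. Low dose and air rats covered similar ranges, and 3 high dose rats lay below all air rats, of which air rat 4 was the lowest. The high dose fell 1.81-fold below air (-0.85 ± 0.23, adjusted p = 0.00403) and 1.76-fold below the low dose (-0.81 ± 0.23, adjusted p = 0.0177), while low dose against air gave -0.04 ± 0.23 (adjusted p = 0.948). The difference between doses was not called without high dose rat 78 (-0.75, adjusted p = 0.0506), high dose rat 79 (-0.64, adjusted p = 0.0836) or low dose rat 49 (-0.75, adjusted p = 0.0539). At day 28 Fmo1 was at 2.33 ± 0.41 in air, 2.63 ± 0.33 at the low dose and 2.49 ± 0.42 at the high dose.

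Aox1, an aldehyde oxidase that acts on aldehydes and nitrogen heterocycles, fell by like amounts at both doses. It read -0.12, -0.65, -0.50, -0.52 and -0.33 in air, -1.38, -1.26, -1.17, -1.28 and -1.28 at the low dose and -1.13, -1.29, -1.78, -1.42 and -1.72 at the high dose of day 6. All 10 exposed rats lay below all air rats, and the 2 doses overlapped. The falls were 1.80-fold (-0.85 ± 0.16, adjusted p = 0.000771) and 2.06-fold (-1.04 ± 0.16, adjusted p = 8.17e-06), and the difference between doses was -0.20 ± 0.16 (adjusted p = 0.505). At day 28 the means were -0.45 ± 0.36 in air, -0.54 ± 0.34 at the low dose and -0.78 ± 0.22 at the high dose.

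Among the other oxidases, Maoa, a mitochondrial amine oxidase, varied little within groups. It was at 0.79 ± 0.07 in air, 0.57 ± 0.11 at the low dose and 0.21 ± 0.17 at the high dose of day 6. The highest of the high dose rats (0.44) was below the lowest air rat (0.74), and the fall was 1.5-fold (-0.58 ± 0.07, adjusted p = 1.77e-07). Maoa was also lower at the high than at the low dose (-0.36 ± 0.07, adjusted p = 0.000783). Aox3, a second aldehyde oxidase, fell by 0.44 on the log2 scale (adjusted p = 0.0105) but was well above background in only 1 of 5 high dose rats. Its size depended on the processing, from -0.37 without air rat 3 to -1.78 with the scanner's processed signals. Maob (-0.08), Fmo5 (0.30) and Xdh (0.32), the xanthine dehydrogenase of purine breakdown, did not pass at the high dose.

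Alcohol, aldehyde and carbonyl metabolism moved less. Of 7 measured members, 2 fell at the high dose at day 6 and none rose. Aldh1a1, a cytosolic aldehyde dehydrogenase that also makes retinoic acid, read 5.80, 5.54, 5.79, 6.16 and 5.67 in air, 5.44, 5.13, 5.64, 5.51 and 5.15 at the low dose and 5.19, 5.16, 5.12, 5.19 and 4.89 at the high dose. The high dose rats all lay below the air rats, by 1.6-fold (-0.68 ± 0.15, adjusted p = 0.000559), and the low dose difference of -0.42 ± 0.15 did not pass (adjusted p = 0.089). Aldh3a1, which removes aromatic and fatty aldehydes, fell by 0.45 on the log2 scale (adjusted p = 0.0151), a call lost with median centring (-0.40, adjusted p = 0.0697). Aldh2 (-0.30, adjusted p = 0.0588), Adh1 (-0.46, adjusted p = 0.0887), Adh7 (-0.49), Cbr1 (0.05) and Cbr3 (0.06) did not pass. Adh1 is the gene now named Adh1c.

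Hydrolases gave 1 call of 3. Ephx1, the microsomal epoxide hydrolase, read 1.15, 1.62, 1.08, 1.97 and 1.52 in air, 1.40, 1.40, 1.69, 0.86 and 1.00 at the low dose and 1.42, 1.63, 0.46, 0.42 and -0.18 at the high dose of day 6. High dose rats 75 and 76 lay within the air range and rats 77, 78 and 79 below it. The mean fall was 1.64-fold (-0.72 ± 0.27, adjusted p = 0.0411). It was no longer called without air rat 4 (-0.59, adjusted p = 0.113), air rat 2 (-0.68, adjusted p = 0.0758), air rat 5 (-0.71, adjusted p = 0.0699), or high dose rats 77 (-0.64, adjusted p = 0.0969), 78 (-0.63, adjusted p = 0.0959) or 79 (-0.49, adjusted p = 0.165). Ephx2, the soluble epoxide hydrolase, did not pass (-0.31, adjusted p = 0.073).

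Glutathione conjugation held both falls and a rise. Of 9 measured members, 4 soluble transferases fell at the high dose at day 6, 1 microsomal transferase rose and 4 did not pass. Gsta4, which conjugates the lipid peroxidation product 4-hydroxynonenal, read 1.75, 1.80, 1.61, 1.13 and 1.77 in air, 0.98, 1.33, 1.03, 0.71 and 1.31 at the low dose and 0.56, 0.67, 0.08, 0.40 and -0.07 at the high dose. The high dose rats lay below all other rats of that day. The fall was 2.44-fold (-1.29 ± 0.16, adjusted p = 4.31e-07), and 1.68-fold against the low dose (-0.75 ± 0.16, adjusted p = 0.00244). The low dose fell 1.45-fold below air (-0.54 ± 0.16, adjusted p = 0.0421), a call that 10 of 22 alternatives lost, among them the removal of air rats 1, 2, 3 or 5 or of low dose rats 47, 49 or 50.

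Gsta1, an alpha class transferase, read 2.49, 1.99, 2.42, 2.69 and 2.53 in air at day 6. The low dose rats read 1.31, 1.73, 1.37, 1.56 and 1.88, and the high dose rats 1.65, 2.22, 1.26, 1.65 and 0.97. All low dose rats lay below the air rats, while high dose rat 76 lay within the air range. The falls were close in size, 1.81-fold at the low dose (-0.85 ± 0.18, adjusted p = 0.00211) and 1.83-fold at the high dose (-0.87 ± 0.18, adjusted p = 0.000276). Near-identical alpha class copies exist in the rat genome, and whether the probe reads more than 1 of them was not tested.

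Gstm2, a mu class transferase, read 0.70, 0.96, 0.74, 1.1 and 0.63 in air and 0.46, 0.61, -0.07, -0.06 and -0.65 at the high dose of day 6. The groups did not overlap, but high dose rats 75 and 76 lay just under the lowest air rat. The fall was 1.70-fold (-0.77 ± 0.24, adjusted p = 0.0126) and was not called without high dose rat 79 (-0.59, adjusted p = 0.057). Low dose rats read 0.30, 0.87, 1.13, 0.55 and 0.73 for Gstm2 (-0.11 ± 0.24, adjusted p = 0.848). Gstp1, the pi class transferase of airway epithelium, fell by 0.62 on the log2 scale (adjusted p = 0.00928), a call lost with median centring (-0.56, adjusted p = 0.1). Gstm1 (-0.25), Gstt1 (-0.01) and Gstt2 (-0.15) did not pass.

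Of the microsomal transferases, Mgst2 rose. It read -0.94, -0.94, -1.18, -1.16 and -1.17 in air and -0.73, -0.45, -0.89, -0.71 and -0.78 at the high dose of day 6, with every high dose rat above every air rat. It rose 1.29-fold (0.37 ± 0.14, adjusted p = 0.0409), but 14 of 22 alternatives lost this call, among them the removal of air rats 3, 4 or 5 or high dose rats 75, 76, 78 or 79. Mgst1 differed by 0.59 ± 0.24 and just missed the threshold (adjusted p = 0.0545), although its 5 high dose rats lay above all air rats.

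**Figure D3:**
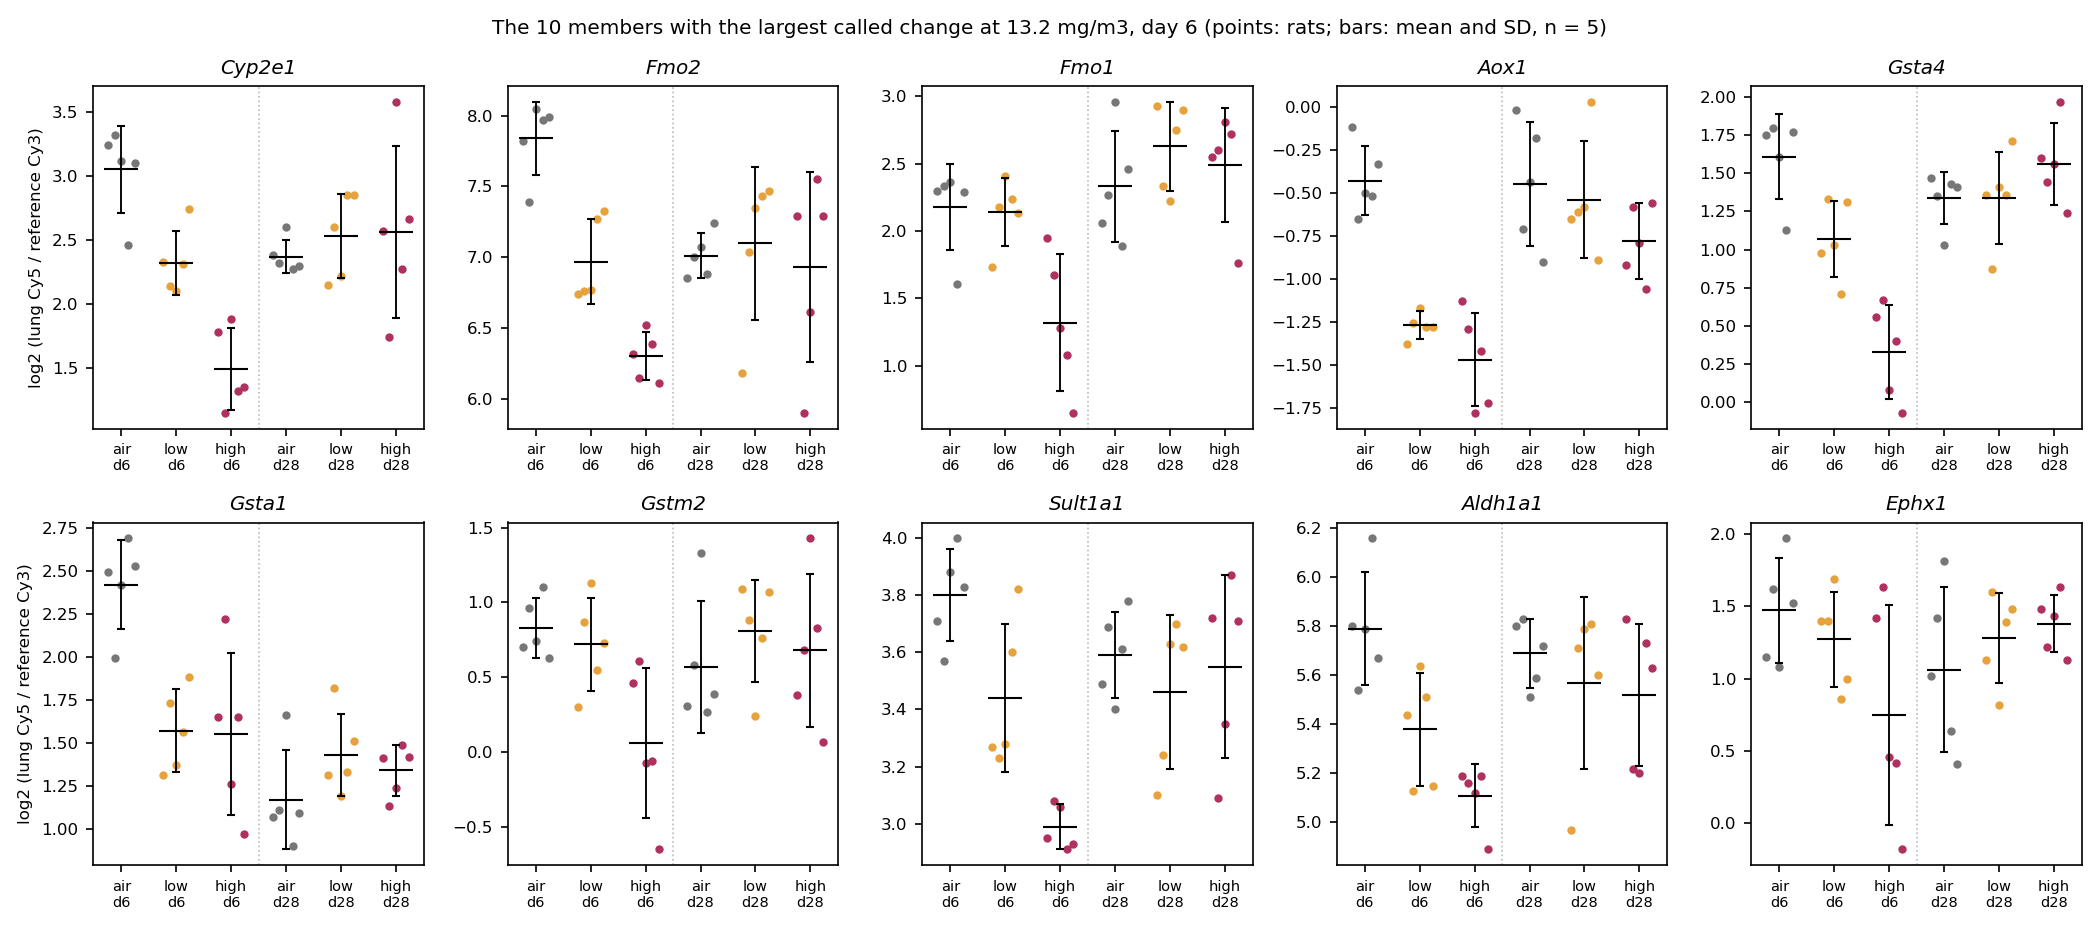
Log2 ratios of lung over reference for each rat (points) with group mean and SD (bars, n = 5), for the 10 members with the largest called change at the high dose at day 6; d6 and d28 are the sampling days. Fmo2 and Gsta4 step down from air to low to high dose at day 6, Aox1 and Gsta1 drop alike at both doses, and all 10 overlap between groups at day 28.

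The other conjugating enzymes included the largest of the 3 called rises. Sult1a1, a phenol sulfotransferase, read 3.71, 3.57, 3.88, 4.0 and 3.83 in air, 3.27, 3.23, 3.28, 3.60 and 3.82 at the low dose and 2.95, 3.08, 3.06, 2.91 and 2.93 at the high dose of day 6. The high dose rats lay below all others, by 1.76-fold against air (-0.81 ± 0.14, adjusted p = 2.92e-05) and by 1.37-fold against the low dose (-0.46 ± 0.14, adjusted p = 0.0275). The call between doses was lost without high dose rat 78 (-0.44, adjusted p = 0.0612) or 79 (-0.44, adjusted p = 0.0684), or without low dose rat 50 (-0.42, adjusted p = 0.0743) or 51 (-0.36, adjusted p = 0.0978). Ugt1a6, a glucuronosyltransferase of phenols and an Ahr target, read -1.95, -1.57, -1.86, -1.31 and -1.82 in air and -1.32, -1.42, -1.01, -1.02 and -0.56 at the high dose. The groups overlapped through air rat 4. It rose 1.55-fold (0.64 ± 0.15, adjusted p = 0.00116), and its second probe gave 0.65. With median centring the call was lost (0.55, adjusted p = 0.0578).

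Ugt1a6 was also higher at the high than at the low dose of day 6, where the low dose rats read -1.15, -1.65, -1.90, -1.75 and -1.33. The difference was 1.40-fold (0.49 ± 0.15, adjusted p = 0.0285), and 8 of 22 alternatives lost it, among them the removal of high dose rats 77, 78 or 79 or low dose rats 48, 49 or 50. Nat1, an arylamine acetyltransferase, was at 0.51 ± 0.07 in air and 0.78 ± 0.08 at the high dose, where it rose 1.20-fold (0.26 ± 0.09, adjusted p = 0.0245). That call was lost without air rat 4 (0.24, adjusted p = 0.0599) or without high dose rat 76 (0.23, adjusted p = 0.0618) or 77 (0.25, adjusted p = 0.0547).

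Ahr itself did not pass in any exposure comparison. At day 6 it read 0.94, 0.76, 0.97, 0.70 and 0.90 in air, 0.79, 0.77, 1.21, 0.98 and 0.68 at the low dose and 0.87, 0.63, 0.89, 0.78 and 0.68 at the high dose. The 3 groups covered the same range. High dose against air gave -0.08 ± 0.15 (adjusted p = 0.698) at day 6 and -0.31 ± 0.15 (adjusted p = 0.323) at day 28. Of the 3 classical targets named at the start, Ugt1a6 rose, Cyp1b1 fell and Cyp1a1 was not called at the high dose at day 6. As given above, the Ugt1a6 call was lost with median centring. The Cyp1b1 call was lost without air rat 4 or 5 or high dose rat 78 or 79. These 3 genes are no full list of Ahr targets, and no direction of Ahr targets as a set was read from them. Whether other members are Ahr targets was not examined.

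**Figure D4:**
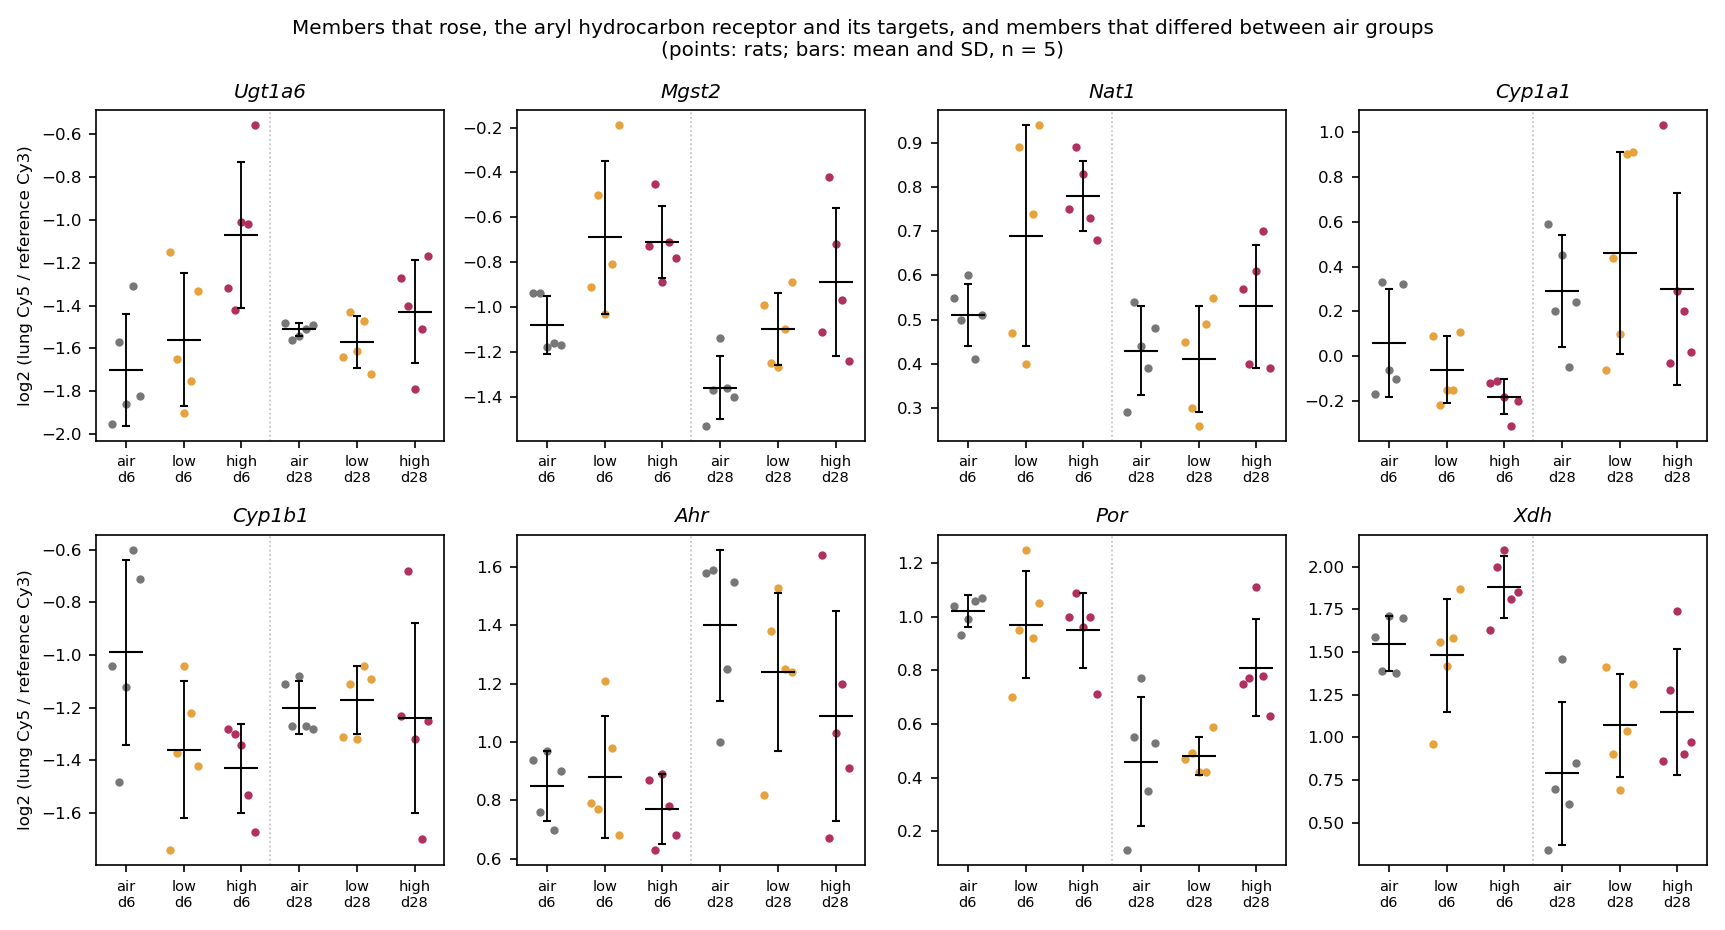
Log2 ratios of lung over reference for each rat (points) with group mean and SD (bars, n = 5) for the 3 members that rose at the high dose at day 6 (Ugt1a6, Mgst2, Nat1), for Cyp1a1, Cyp1b1 and Ahr, and for Por and Xdh, which differed between the air groups. The 5 high dose rats of day 6 lie above all air rats for Mgst2 and Nat1. Cyp1a1 was well above background on only 10 of 30 arrays.

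At the low dose at day 6, 4 of 40 members fell (Fmo2, Gsta1, Aox1 and Gsta4) and none rose, where 1.75% of all genes were called lower and 4.96% higher. The median change was -0.08 over the members. All 4 are also among the 16 that fell at the high dose, but both comparisons share the 5 air rats, so the second is no separate evidence. Side by side, the log2 changes at the low and the high dose were -0.87 and -1.54 for Fmo2, -0.85 and -0.87 for Gsta1, -0.85 and -1.04 for Aox1, and -0.54 and -1.29 for Gsta4. The count was 2 without air rat 3 or without air rat 5, and with median centring only Aox1 of the 4 kept its call. Without air rat 4 it was 6, as Cyp2e1 (-0.87, adjusted p = 0.0167) and Pon1 (1.5, adjusted p = 0.00747) passed too. Calls over all genes were 1236 with all rats and 428 with median centring. They were 981, 1312 and 869 without air rats 3, 4 and 5.

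Between the doses at day 6, 5 members were lower at the high dose (Cyp2e1, Fmo1, Gsta4, Sult1a1 and Maoa) and 1 was higher (Ugt1a6), where 3.85% of all genes were called lower and 8.01% higher. The count fell to 3 without high dose rat 78 or 79, and with median centring only Cyp2e1 of the 6 kept its call. Calls over all genes fell as well, from 2186 to 1715 without rat 78, 1353 without rat 79 and 774 with median centring. Aox1 and Gsta1, which fell at both doses, differed between them by -0.20 ± 0.16 (adjusted p = 0.505) and -0.02 ± 0.18 (adjusted p = 0.968).

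At day 28 no member passed at either dose. At the high dose 0.109% of all genes were called lower and 0.076% higher, and 7 members had an unadjusted p under 0.05. The share of all genes with an unadjusted p under 0.05 was not counted. Such member counts therefore cannot be set against the called shares, which use the adjusted p. For the low dose, 0.0109% of all genes were called lower and 0% higher, and 1 member had an unadjusted p under 0.05. The median member change was 0.08 at the high dose and 0.09 at the low dose. Between the doses at day 28 limma called none of the 40, with 1 at an unadjusted p under 0.05, where 0.0706% of all genes were called in each direction. The largest called falls of day 6 had log2 differences from air of 0.19 (Cyp2e1), -0.08 (Fmo2) and 0.23 (Gsta4) at the high dose of day 28. Without air rat 8 of day 28, 1 member, Por, was called higher at the high dose (0.42, adjusted p = 0.0396), a gene named after its value was seen. Without that rat 321 of all genes were called at the high dose of day 28, against 34 with all rats. Por read 0.13, 0.55, 0.77, 0.35 and 0.53 in air at day 28 and 0.75, 0.77, 1.11, 0.78 and 0.63 at the high dose.

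The change of the high dose effect from day 6 to day 28 was tested as an interaction, each day against its own air rats. It was positive and past the threshold for 8 members and negative for none, where 5.49% of all genes were called higher and 11.2% lower. The 8 were Cyp2e1 (1.75 ± 0.32, adjusted p = 0.000247), Gsta4 (1.51 ± 0.23, adjusted p = 2.21e-05), Fmo2 (1.46 ± 0.34, adjusted p = 0.00265), Gsta1 (1.04 ± 0.25, adjusted p = 0.00382), Fmo1 (1.01 ± 0.32, adjusted p = 0.0288), Sult1a1 (0.77 ± 0.19, adjusted p = 0.00586), Aox1 (0.71 ± 0.23, adjusted p = 0.0291) and Maoa (0.51 ± 0.10, adjusted p = 0.000487). All 8 were among the members that had fallen at day 6, which the interaction shares as data. The count was 14 without high dose rat 76 of day 6 and 13 without air rat 8 of day 28. Without air rat 4 it was 9, with Ugt1a6 called lower (-0.65, adjusted p = 0.0277). Calls over all genes were 3082 with all rats, 3473 without rat 76, 3457 without rat 8 and 3213 without rat 4. With median centring the calls of Gsta1 (adjusted p = 0.112), Fmo1 (adjusted p = 0.113), Sult1a1 (adjusted p = 0.0652) and Maoa (adjusted p = 0.0513) were lost. The Fmo2 call was lost with the mean of both probes (0.80, adjusted p = 0.0733), and the second probe differed from air by -0.49 at day 6 and -0.34 at day 28. Removal of any 1 of 7 rats took away the call of Fmo1 (air rats 3, 6 and 9 and high dose rats 78, 79, 82 and 83) and likewise that of Aox1 (air rats 1, 5, 7 and 10 and high dose rats 77, 79 and 84).

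For some members this interaction held a difference between the air groups as well as one between the exposed groups. The Gsta1 air rats read 1.07, 1.11, 1.66, 0.90 and 1.09 at day 28, all below the air rats of day 6, a 2.39-fold lower level (-1.26 ± 0.18, adjusted p = 7.34e-05). The high dose rats read 1.41, 1.13, 1.24, 1.49 and 1.42 at day 28, with a mean of 1.34 ± 0.15 against 1.55 ± 0.47 at day 6. So the Gsta1 interaction was positive while the high dose mean itself was no higher at day 28. In contrast, the Gsta4 high dose mean went from 0.33 ± 0.31 to 1.56 ± 0.27 while its air mean went from 1.61 ± 0.28 to 1.34 ± 0.17. Gsta4 at day 28 read 1.47, 1.35, 1.03, 1.43 and 1.41 in air and 1.6, 1.44, 1.56, 1.97 and 1.24 at the high dose. The high dose group was not tested against itself across days.

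The same interaction at the low dose called 1 member, Gsta1 (1.12 ± 0.25, adjusted p = 0.0108), and none lower, where 0.309% of all genes were called higher and 1.66% lower. The low dose Gsta1 rats read 1.31, 1.82, 1.19, 1.33 and 1.51 at day 28, close to their day 6 values, and the air rats had moved as given above. The count was 2 without air rat 6 or without low dose rat 52 of day 28, and the Gsta1 call was lost with median centring (1.26, adjusted p = 0.123).

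Between the 2 air groups, 3 members were lower at day 28 and 1 was higher, where 1.09% of all genes were called lower and 1.87% higher. Beside Gsta1, Xdh was lower by 1.70-fold (-0.76 ± 0.18, adjusted p = 0.0233), from 1.59, 1.39, 1.71, 1.38 and 1.70 at day 6 to 0.34, 0.70, 1.46, 0.61 and 0.85 at day 28, with air rat 8 inside the earlier range. Por was lower by 1.47-fold (-0.55 ± 0.10, adjusted p = 0.00301), from 1.04, 0.93, 0.99, 1.06 and 1.07 to the day 28 values above, and the groups did not overlap. Ahr was higher by 1.45-fold (0.54 ± 0.15, adjusted p = 0.0411), reading 1.58, 1.59, 1.00, 1.25 and 1.55 in air at day 28, and 14 of 22 alternatives lost this call. The count was 2 without any 1 of air rats 1, 3, 5, 6, 7 and 9, and the calls lost were those of Xdh and Ahr. Ahr was also no longer called without air rat 2 (0.52, adjusted p = 0.0895), 4 (0.50, adjusted p = 0.0699) or 10 (0.50, adjusted p = 0.107). Without air rat 8 the count of members was 6, and 2498 of all genes were called between the air groups, against 544 with all rats.

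Some members, chosen after their values were seen, varied widely between rats of 1 group. Cyp2a3, a P450 of the airway and nasal epithelium, read 0.01, 1.1, 0.76, 4.87 and 0.46 in air and 0.13, 1.49, -0.09, 0.36 and -0.11 at the high dose of day 6. Air rat 4 was far above all others, and the difference of -1.09 ± 0.61 (adjusted p = 0.167) was -0.23 (adjusted p = 0.721) without it. Cyp2f4, a P450 of club cells, read 2.79, 3.89, 3.15, 5.86 and 2.88 in air and differed by -1.08 ± 0.57 at the high dose (adjusted p = 0.142), and by -0.54 (adjusted p = 0.461) without air rat 4. The mean over the 10 measured club and goblet markers was also highest in air rat 4 (3.79) among air rats of day 6, and in low dose rat 49 (3.62), whose Cyp2a3 was at 3.10. The part of airway content in these 2 genes was not tested.

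Pon1, a paraoxonase that hydrolyses organophosphates and lactones, read 0.93, 1.21, 0.57, 2.52 and 0.53 in air, 2.26, 2.58, 2.80, 1.95 and 1.97 at the low dose and 2.48, 2.63, 1.34, 1.31 and 0.79 at the high dose of day 6. All 5 low dose rats lay above air rats 1, 2, 3 and 5. The low dose difference of 1.16 ± 0.38 did not pass (adjusted p = 0.0622), yet it did without air rat 4 (1.5, adjusted p = 0.00747). High dose rats 75 and 76 were also the highest of their group for Gstm1 (0.51 and 0.80 against -0.58, -0.43 and -1.15 in rats 77, 78 and 79) and for Ephx1 and Gstm2, given above. High dose rat 75 had the highest mean of its group over the club and goblet (3.26), type I (3.84) and endothelial (3.32) markers. It was also the highest for ciliated, type II, fibroblast and smooth muscle, erythroid and hepatocyte markers, but not for macrophage, neutrophil or heart muscle markers. Rat 76 was the highest for none of these lists. Whether these marker levels bear on those members was not tested.

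**Figure D5:**
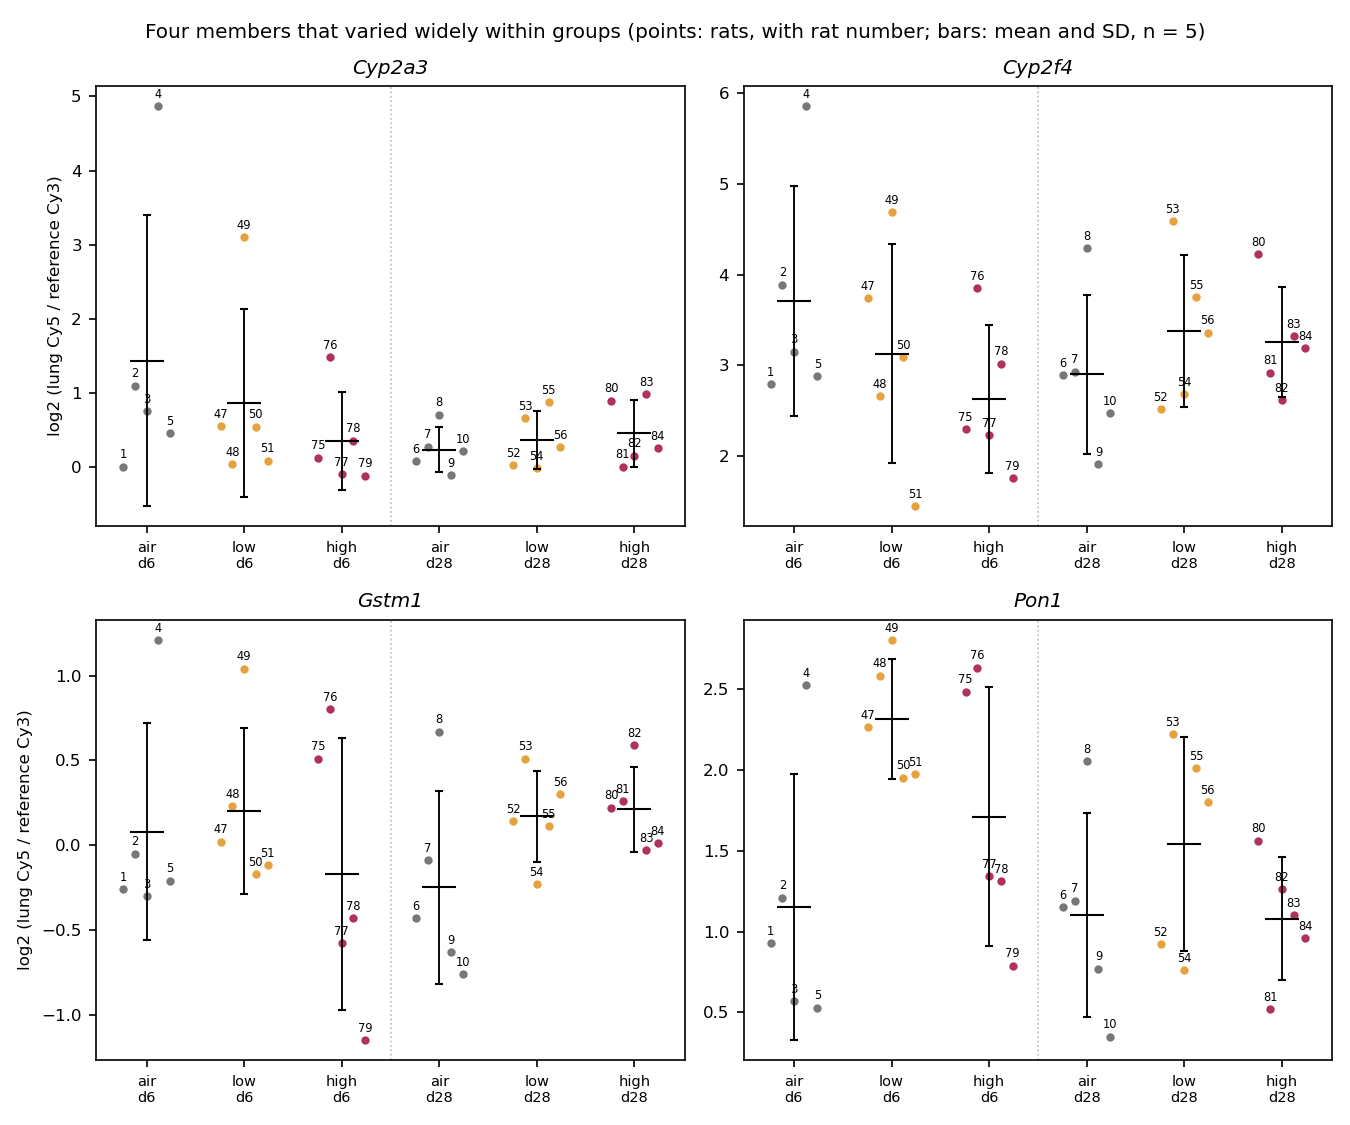
Log2 ratios of lung over reference for Cyp2a3, Cyp2f4, Gstm1 and Pon1 in each rat (points, labelled with the rat number) with group mean and SD (bars, n = 5). Air rat 4 of day 6 is the highest air rat in all 4 panels, and high dose rats 75 and 76 top their group for Gstm1 and Pon1.

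Markers of several lung cell types moved at the high dose of day 6, beside the members that fell. Over all genes, 15.5% were called lower and 21% higher in that comparison. Alveolar type I markers were lower for 8 of 11 measured, with a mean log2 ratio per rat of 4.14 to 4.38 in air and 3.27 to 3.84 at the high dose (Rtkn2 was not well above background on any array). Endothelial markers were lower for 5 of 12, with means of 3.34 to 3.62 in air and 2.74 to 3.32 at the high dose, and erythroid markers for 4 of 6 (Epb42 was not well above background on any array). Macrophage and monocyte markers were higher for 13 of 15, from 0.25 to 0.40 in air to 1.13 to 2.30 at the high dose, and neutrophil markers were higher for 7 of 9 and lower for 1. In bulk lung RNA, fewer cells of a type and less RNA per cell cannot be told apart, and the part of these shifts in the members' falls was not tested.

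Not all cell type markers went down with the members. The counts below stand beside the same shares of all genes, 15.5% lower and 21% higher, at the high dose of day 6. Club and goblet markers were higher for 4 of 10 and lower for none, with Reg3g and Tff2 not well above background on any array, and type II markers were higher for 4 of 11 and lower for 1. Ciliated markers were higher for 1 of 8 and lower for 1, and fibroblast and smooth muscle markers were higher for 3 of 12 and lower for 2. Heart muscle markers were lower for 1 of 10, and hepatocyte markers were higher for 1 of 6, with Tat and Cps1 not well above background on any array. In the low dose rats of day 6, 1 of 11 type I markers and 1 of 12 endothelial markers were lower, while 6 of 15 macrophage and 6 of 9 neutrophil markers were higher. Club and goblet markers were higher there for 4 of 10 and lower for none, and type II markers higher for 3 of 11 and lower for 1. Higher calls also went to 1 of 8 ciliated and 1 of 12 fibroblast and smooth muscle markers. No erythroid, heart muscle or hepatocyte marker was called. Over all genes, 1.75% were called lower and 4.96% higher at that dose and day. At day 28 the high dose type I mean was 4.02 to 4.59 and the macrophage mean 0.17 to 0.65, against 4.29 to 4.63 and -0.01 to 0.43 in air.

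Other genes of the pathway, outside the members, were taken from a list of 70, of which 55 were tested. At the high dose of day 6, 15 fell and 5 rose, with a median of -0.09. Over all genes, 15.5% were called lower and 21% higher there. Among those with the smallest p, Gstm7, a mu class transferase, fell by 1.53 on the log2 scale (adjusted p = 7.01e-08) and Cyp4b1, a lung P450 that activates furans and arylamines, by 1.48 (adjusted p = 8.58e-06). Cyp2d4 fell by 0.72 (adjusted p = 9.57e-05) and Mgst3 by 0.52 (adjusted p = 0.000127). Akr1b8, an aldose reductase-like enzyme, rose by 1.67 (adjusted p = 2.11e-10) and Ggt1, which begins the breakdown of extracellular glutathione, by 1.00 (adjusted p = 0.000182).

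By group of that list, 4 of 9 other P450 and electron transfer genes fell and none rose, and 6 of 15 other oxidation, reduction and hydrolysis genes fell and 1 rose. Of 14 conjugation and glutathione supply genes 3 fell and 3 rose, and of 8 efflux transporters 2 fell and 1 rose. These small counts stand beside 15.5% of all genes called lower and 21% called higher, and were not tested against those shares. None of the 9 receptors and partners, which include the Ahr partner Arnt and the pregnane X receptor Nr1i2, was called at either dose or day. In the low dose rats of day 6, 4 of the 55 fell and none rose, where 1.75% of all genes were called lower and 4.96% higher. At day 28 none of the 55 was called at either dose.

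The arrays lay on 4 slides, and the members were also read within each slide. The 16 members that fell at the high dose of day 6 kept a negative difference from the air rats of the same slide in 14, 16, 15 and 16 cases on slides 1 to 4. The median member difference was -0.02, -0.34, -0.34 and -0.38 on those slides, each from 1 or 2 high dose and 1 or 2 air rats, which gives no test. The single high dose rat on slide 1 was rat 76. For the 4 members that fell at the low dose, 4, 4, 3 and 4 kept their sign.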

How the data were processed

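Lung RNA of 30 rats was hybridised on 2-colour Agilent arrays, with the lung RNA in Cy5 and a reference RNA in Cy3. Per the file headers, spot intensity was extracted with Agilent Feature Extraction 11.0.1.1, and the deposited median foreground and background intensity of both channels was used. The authors' deposited value table holds log2 ratios. Its columns correlated at 0.967 to 0.999 with the values computed here and had medians between -0.0314 and -0.00539, while its normalization is not stated in the headers or labels read here.

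With limma 3.58.1 in R 4.3.3, background was corrected by normexp (offset 50) and arrays were normalized by loess, with control and outlier spots given no weight. Spots of a probe were averaged. Probes well above background in Cy5 on at least 5 of 30 arrays were kept (20852 of 30367), and each gene was read from its brightest probe, which left 18420 genes. Symbols were updated through RefSeq GRCr8, and Adh1 was read as Adh1c. The 6 group means were fitted together, and p-values of 9 comparisons were adjusted by Benjamini-Hochberg over all genes at 0.05. The limma fit of high dose against air at day 6 was tried on simulated normalized log2 ratios with known changes and even noise. Background correction, loess, the probe filter and the other comparisons were not tried that way. Nothing in the labels names a batch, so slide and scan day were read from the file headers.

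The members, roles and gene lists were chosen with earlier results of these data known. Values of every rat are given for the 10 members with the largest called change at the high dose at day 6, for up to 4 called members of each other comparison, and for Cyp1a1, Cyp1b1 and Ahr. Other members given by rat were chosen after their values were seen. The 6 other pathway genes named had the smallest p. Each rat is a separate animal. The number of arrays limits the precision. No member probe was saturated.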

Additional observations from a re-analysis of the deposited data

Results flagged for a closer look

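Some values stood apart from the other 4 rats of their group by Dixon's test at the 95% level. This happened in 18 of 240 gene and group pairs (7.5%), where chance gives about 1 in 20, and 5 of the 18 were air rat 4 of day 6. No cause was tested.

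In air rat 4 of day 6, Cyp2a3 was at 4.87 (nearest other rat 1.1), Cyp2e1 at 2.46 (3.10), Fmo1 at 1.61 (2.29), Gsta4 at 1.13 (1.61) and Gstm1 at 1.21 (-0.05). In air rat 3 of day 6, Fmo5 was at 1.36 (1.03). In the low dose group of day 6, Cyp2a3 was at 3.10 in rat 49 (0.56) and Maoa at 0.37 in rat 51 (0.59). In the high dose group of day 6, Cyp4f4 was at 0.46 in rat 76 (0.25) and Aldh1a1 at 4.89 in rat 79 (5.12).

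At day 28, air rat 8 had Gsta1 at 1.66 (1.11), Gsta4 at 1.03 (1.35) and Gstm2 at 1.33 (0.58). Ephx2 was at -0.36 in air rat 7 (0.09) and Cyp4f4 at 0.67 in air rat 10 (0.22). Aldh1a1 was at 4.97 in low dose rat 52 (5.60), Gstt1 at 0.12 in low dose rat 54 (0.42) and Fmo1 at 1.76 in high dose rat 84 (2.55).

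The dose effect differed between the days by the interaction in limma for 8 members at the high dose. The log2 differences were 1.75 for Cyp2e1, 1.51 for Gsta4, 1.46 for Fmo2, 1.04 for Gsta1, 1.01 for Fmo1, 0.77 for Sult1a1, 0.71 for Aox1 and 0.51 for Maoa. At the low dose it differed for Gsta1, by 1.12.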

How the results depend on the processing

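No called value changed sign in the alternatives run. Values that were not called crossed 0 for Ahr at the low dose of day 6 (-0.06 to 0.11), Cyp1a1 at the high dose of day 28 (-0.26 to 0.09) and Cyp1b1 at the high (-0.23 to 0.08) and low dose (-0.05 to 0.17) of day 28. No paired analysis was possible because the groups share no replicate numbers. Of 53 pairs of a member and a comparison, 25 kept the same outcome, called or not called, in every alternative run. Those 25 include pairs of Cyp1a1, Cyp1b1 and Ahr that were never called. Over all pairs, 129 single values lost the threshold while 2 gained it, both for Cyp1b1 at the low dose of day 6. At the high dose of day 6, Cyp2e1, Fmo2, Fmo1, Aox1, Gsta4, Gsta1, Sult1a1, Aldh1a1 and Maoa passed in all 22 alternatives, while Mgst2 missed in 14, Cyp2j4 and Ephx1 in 10, Nat1 in 7 and Cyp1b1 in 5. Gstp1, Aldh3a1 and Ugt1a6 missed only with median centring.

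The number of members called at the low dose of day 6 (4) was 1 with median centring, 8 with scan day as a block, 9 from Cy5 alone and 7 in the authors' deposited table. Between the doses of day 6 (6) it was 1 with median centring. For the high dose effect between days (8) it was 15 in the authors' deposited table, 13 from Cy5 alone and 4 with median centring. For the low dose effect (1) it was 2 with Cy5 alone, with only the groups compared, and with slide as a block without air rat 4, a setting chosen after seeing the data. Between the air groups (4) it was 2 with median centring and 8 with only the groups compared. Calls over all genes moved too. At the low dose of day 6 (1236) they were 428 with median centring and 1703 from Cy5 alone. They were 1533 with scan day as a block and 1321 in the authors' table. Between the doses (2186) they were 774 with median centring. For the high dose effect (3082) they were 3686 in that table, 3636 from Cy5 alone and 1289 with median centring. Between the air groups (544) they were 94 with median centring and 1183 with only the groups compared. The cause was not tested.

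With each rat left out in turn the counts ran from 14 to 20 at the high dose of day 6, 2 to 6 at the low dose, 3 to 8 between the doses, 6 to 14 for the high dose effect between days, 1 to 2 for the low dose effect and 2 to 6 between the air groups. At day 28 they ran from 0 to 1 at the high dose and 0 to 0 at the low dose and between doses. Calls over all genes moved as well. At the high dose of day 6 (6719) they were 6331 without air rat 4 (14 members) and 6467 without rat 76 (20 members). At the high dose of day 28 (34) they were 321 without air rat 8 (1 member). The median change of all genes was -0.01 with loess and 0.15 with median centring at the low dose of day 28, 0 and -0.19 between the doses of day 28, -0.02 and 0.18 for the low dose effect, and 0.01 and -0.16 between the air groups. Signal over background limits Cyp1a1 and Cyp4f4, which were well above it on 10 and 6 of 30 arrays.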
